A study of Homo sapiens with 12 samples.

Results

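The Polo-like kinases PLK1, PLK2, PLK3 and PLK4 were read by 1 feature each among the 45033 features of a one-colour expression array, and so make up 4 of the 17185 genes that could be named on it. The family was chosen with earlier results of these data known, and its members were found through the RefSeq accession of the feature. No feature of theirs was left out: NM_005030 for PLK1, NM_006622 for PLK2, NM_004073 for PLK3 and NM_014264 for PLK4. The RNA was that of HCT116, an established human line of colon cancer, in 4 groups of 3 arrays, which the labels call biological replicates. INZ-treated p53-/- cells were set beside p53-/- cells given DMSO, and INZ-treated p53+/+ cells beside p53+/+ cells given DMSO. INZ (inauhzin), a small molecule that activates p53, was given at 4 μM for 18 hours and DMSO is its vehicle. The p53-/- cells are a derivative of the same line that lacks p53. Each genotype is 1 line, so loss of p53 and any other difference between the lines cannot be told apart. Values are log2 of the RMA intensity deposited for each feature, and the median feature lay at 6.41. PLK1 had a mean of all 12 arrays above 93.4% of features, PLK3 above 75.9%, PLK2 above 70.2% and PLK4 above 63.0%. Probes differ in how brightly they read, so these positions do not rank the kinases by abundance.

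Polo-like kinases share a serine/threonine kinase domain and a polo-box region that brings them to their partners. PLK1 drives entry into mitosis, spindle assembly and cytokinesis, and its RNA peaks as cells approach division. PLK4 starts the formation of a new centriole beside each old one. PLK2 and PLK3 are made rapidly after growth factors and stress, act outside mitosis as well, and are known as genes that p53 can switch on. CHR elements, short sequences in the promoters of many mitotic genes, are bound by the DREAM and MMB complexes, and p53 lowers many such genes through p21 and DREAM.

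The stretches of 250 bases before the RefSeq start of each gene are shown because the family holds both kinds of gene, those that p53 can induce and those of the mitotic programme. They are from RefSeq on GRCh38.p14, all 4 genes matched by symbol, and each is written 5′ to 3′ on the strand of its gene. Capitals mark a CHR, a CCAAT box or a p53 decamer, 1 arm of the response element that p53 binds. PLK1 lies on the plus strand at chr16:23678639-23678888, PLK2 on the minus strand at chr5:58460087-58460336, PLK3 on the plus strand at chr1:44800127-44800376, and PLK4 on the plus strand at chr4:127880643-127880892. PLK4 has 3 listed windows, and the outermost start was used. The last line is a 30-base stretch of PLK4 just after that start, at chr4:127880913-127880942.
PLK1: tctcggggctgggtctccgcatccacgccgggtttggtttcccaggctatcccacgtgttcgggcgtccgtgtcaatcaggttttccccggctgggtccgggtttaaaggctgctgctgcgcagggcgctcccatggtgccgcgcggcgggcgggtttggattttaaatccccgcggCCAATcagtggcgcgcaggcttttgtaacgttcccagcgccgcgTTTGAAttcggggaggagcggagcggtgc
PLK2: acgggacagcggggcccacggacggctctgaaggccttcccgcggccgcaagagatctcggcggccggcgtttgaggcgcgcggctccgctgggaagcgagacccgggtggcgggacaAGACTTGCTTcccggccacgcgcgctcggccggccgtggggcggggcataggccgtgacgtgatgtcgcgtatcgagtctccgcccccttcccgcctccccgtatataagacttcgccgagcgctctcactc
PLK3: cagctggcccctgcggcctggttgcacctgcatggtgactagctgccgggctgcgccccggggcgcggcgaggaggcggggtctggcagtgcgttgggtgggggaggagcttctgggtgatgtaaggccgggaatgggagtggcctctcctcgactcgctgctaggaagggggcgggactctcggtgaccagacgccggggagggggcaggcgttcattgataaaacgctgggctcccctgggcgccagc
PLK4: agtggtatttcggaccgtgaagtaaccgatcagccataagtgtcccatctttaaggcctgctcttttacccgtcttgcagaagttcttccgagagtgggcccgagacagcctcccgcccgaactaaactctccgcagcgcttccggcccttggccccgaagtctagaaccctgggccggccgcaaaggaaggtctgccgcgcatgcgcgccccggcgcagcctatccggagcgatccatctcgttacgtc
PLK4 after the start: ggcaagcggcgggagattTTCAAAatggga

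The windows were searched on both strands, over 250 bases before and 50 after the start, for both forms of the CHR (TTTGAA and TTCGAA), the CCAAT box, the p53 decamer and the CArG box. The search also took in the cyclic AMP element TGACGTCA, the AP-1 site written TGACTCA, the TATA box as TATAAA, and the GC box as GGGCGG. PLK1 held TTTGAA at -29 and CCAAT at -73 from the start. PLK4 held TTTGAA on the opposite strand at 39, where the printed strand reads TTCAAA. PLK2 was the 1 member of the family with a p53 decamer, AGACTTGCTT at -132, and held neither CHR form nor CCAAT. PLK3 held only GC boxes, at -80 and 43, and GC boxes also stood at -102 in PLK1, at -94 and -52 in PLK2 and at -137 in PLK4. None of the 4 windows held TTCGAA, the cyclic AMP element, the AP-1 site, the CArG box or, in the 1 form searched, TATAAA, the TATA box. The PLK2 window reads tatataag shortly before the start, a TATA-like run that TATAAA does not match. Among all 35093 windows of 300 bases, TTTGAA was found in 15.2%, the CCAAT box in 34.6%, the p53 decamer in 6.64% and the GC box in 44.9%. A match is a run of letters and was not tested for binding, and sites further away or in introns lie outside these windows.

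**Figure D1:**
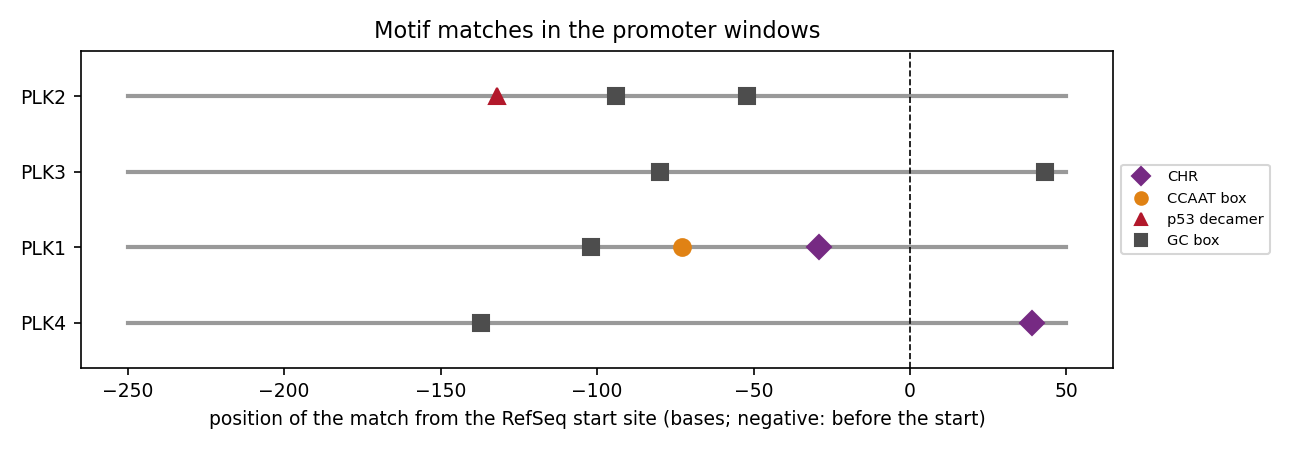
Positions of motif matches, in bases from the RefSeq start, in the 300-base promoter windows of PLK1, PLK2, PLK3 and PLK4. TTTGAA stands before the start in PLK1 and after it in PLK4, the p53 decamer in PLK2 alone of the 4 and GC boxes in all 4.

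Before the kinases, the arrays were checked against their labels. CASP4 (NM_001225), an inflammatory caspase chosen after its values were seen, read 5.19 to 5.68 on the 6 p53-/- arrays, against 9.40 to 10.20 on the 6 p53+/+ arrays. A pair of arrays stood apart from the rest of their own groups on the first principal component, which held 41.3% of the variance. Of these, p53+/+ INZ replicate 3 scored 92.4, within the p53-/- INZ arrays (70.6 to 104.1), against -28.0 and -41.0 for the other p53+/+ INZ arrays. The other, p53+/+ DMSO replicate 1, scored -175.7 and lay farthest out of all 12, against -65.7 and -26.7 for the rest of its group. Their upper quartiles were the highest and the lowest of all arrays, at intensities of 506 and 397. Markers of colon epithelium were above the median feature for 6 of 8 genes (not VIL1 and CDX1), against 1 of 5 for leukocyte, 1 of 5 for mesenchymal and 0 of 3 for endothelial markers. Values of the kinases that these 2 arrays move by over 1.5 times, or whose call or sign they change, are also given without them.

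The comparison of INZ with DMSO asks which kinases respond to INZ when p53 is present and when it is not. In p53+/+ cells PLK2 and PLK3 rose, by 3.79-fold and 7.78-fold, and PLK1 and PLK4 did not pass the test. These were 2 of 4 kinases called higher, where 0.529% of all features were. None of the 4 passed in p53-/- cells, where 1.48% of features were called in either direction. In bulk RNA such as this, fewer cells of a type or cycle phase and less RNA per cell cannot be told apart.

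PLK3, a kinase of the stress response that can phosphorylate p53, read 9.62, 9.19 and 11.47 in p53+/+ cells with INZ, against 5.56, 7.86 and 7.98 in p53+/+ cells with DMSO. Every INZ array was above every DMSO array, and the extremes, 11.47 and 5.56, were the 2 arrays that stand apart. The means were 10.09 ± 1.21 with INZ and 7.13 ± 1.36 with DMSO (SD, n = 3 each). On the log2 scale, as for every difference given here, the difference was 2.96 (95% interval 1.64 to 4.28), a fold of 7.78 (3.12 to 19.4), with an adjusted p of 0.0407 in limma over all 45033 features. Without the 2 arrays the means were 9.40 with INZ and 7.92 with DMSO, and the difference of 1.48 no longer passed (adjusted p = 0.0657). The call was also lost when any 1 of 10 of the 12 arrays was left out, with adjusted p from 0.0594 to 0.132. It held when p53+/+ DMSO replicate 3 or p53+/+ INZ replicate 2 was the one left out. Leaving out a p53-/- array changes the shared estimate of the spread and not the difference. Leaving out 1 array moved the difference between 2.17 and 3.41.

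Without p53, PLK3 read 8.77, 8.81 and 9.30 with INZ, against 9.52, 9.53 and 9.33 with DMSO. Here every INZ array was below every DMSO array, by little. The means were 8.96 ± 0.29 with INZ and 9.46 ± 0.11 with DMSO (SD, n = 3 each), and the difference of -0.50 (-1.82 to 0.82) did not pass (adjusted p = 0.785). The 2 lines thus had opposite orders. INZ above DMSO in every p53+/+ array with INZ below DMSO in every p53-/- array was found for 105 features, 0.233% of the table. PLK3 was the 1 kinase of the 4 among them. With 3 arrays in each group such orders also arise without any effect, so the pattern alone does not show an opposite response. The difference between the 2 INZ effects, p53-/- minus p53+/+, was -3.46 (-5.33 to -1.60), with an adjusted p of 0.574 in limma. Without the 2 arrays that stand apart it was -1.99 (adjusted p = 0.123).

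PLK2, a kinase of the G1 phase and of neurons, read 8.76, 8.25 and 9.06 in p53+/+ cells with INZ, against 6.15, 7.37 and 6.78 in p53+/+ cells with DMSO. No values overlapped, and the lowest INZ array was 8.25 against 7.37 for the highest DMSO array. The means were 8.69 ± 0.41 with INZ and 6.77 ± 0.61 with DMSO (SD, n = 3 each). The difference was 1.92 (1.19 to 2.66), a fold of 3.79 (2.28 to 6.32), with an adjusted p of 0.0210 in limma. It did not pass without p53+/+ DMSO replicate 1 (1.62, adjusted p = 0.0710), p53+/+ INZ replicate 1 (1.89, 0.0824) or p53+/+ INZ replicate 3 (1.74, 0.0790). Without both arrays that stand apart it was 1.43 (adjusted p = 0.114), with means of 8.50 with INZ and 7.07 with DMSO.

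Without p53, PLK2 read 8.92, 9.04 and 8.64 with INZ, against 8.55, 8.48 and 9.15 with DMSO. These values overlapped, with means of 8.87 ± 0.20 with INZ and 8.73 ± 0.37 with DMSO (SD, n = 3 each). The difference of 0.14 had an interval from -0.60 to 0.88 (adjusted p = 0.909), below the p53+/+ estimate of 1.92 and its interval of 1.19 to 2.66. Without the 2 arrays that stand apart the intervals overlapped, at -0.47 to 0.75 in p53-/- and 0.68 to 2.18 in p53+/+ cells. The difference between the 2 effects, p53-/- minus p53+/+, was -1.78 (-2.83 to -0.74), with an adjusted p of 0.707 in limma, which did not pass.

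PLK1, the kinase of mitotic entry, read 10.75, 10.58 and 12.28 in p53+/+ cells with INZ, against 10.09, 11.29 and 11.07 in p53+/+ cells with DMSO. The highest and the lowest of these 6 values, 12.28 and 10.09, came from the 2 arrays that stand apart. The means were 11.20 ± 0.94 with INZ and 10.82 ± 0.64 with DMSO (SD, n = 3 each), and the groups overlapped. The difference of 0.39 (-0.54 to 1.31) did not pass (adjusted p = 0.721), and without the 2 arrays it was -0.51, with means of 10.66 with INZ and 11.18 with DMSO. The sign of the INZ effect on PLK1 in p53+/+ cells is therefore not settled by these arrays. The p53-/- arrays of PLK1 read 12.29, 12.09 and 12.63 with INZ, against 12.32, 11.82 and 12.05 with DMSO. The values overlapped and the difference was 0.28 (-0.64 to 1.20, adjusted p = 0.839).

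PLK4, the kinase of centriole duplication, read 6.98, 7.56 and 7.73 in p53+/+ cells with INZ, against 6.88, 6.77 and 7.56 in p53+/+ cells with DMSO. The groups overlapped, with means of 7.42 ± 0.39 with INZ and 7.07 ± 0.43 with DMSO (SD, n = 3 each). The difference was 0.35 (-0.65 to 1.35, adjusted p = 0.771). The p53-/- arrays of PLK4 read 8.39, 8.47 and 7.93 with INZ, against 7.47, 6.02 and 8.29 with DMSO. The DMSO arrays were widely spread, and 1 of them, at 8.29, lay within the INZ range. The difference was 1.00 (0.00 to 2.00), with an adjusted p of 0.367 in limma, and so did not pass. It was 0.38 without p53-/- DMSO replicate 2 and 1.52 without p53-/- DMSO replicate 3, and neither passed. For PLK4 in p53+/+ cells the difference was 0.11 without the 2 arrays that stand apart.

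**Figure D2:**
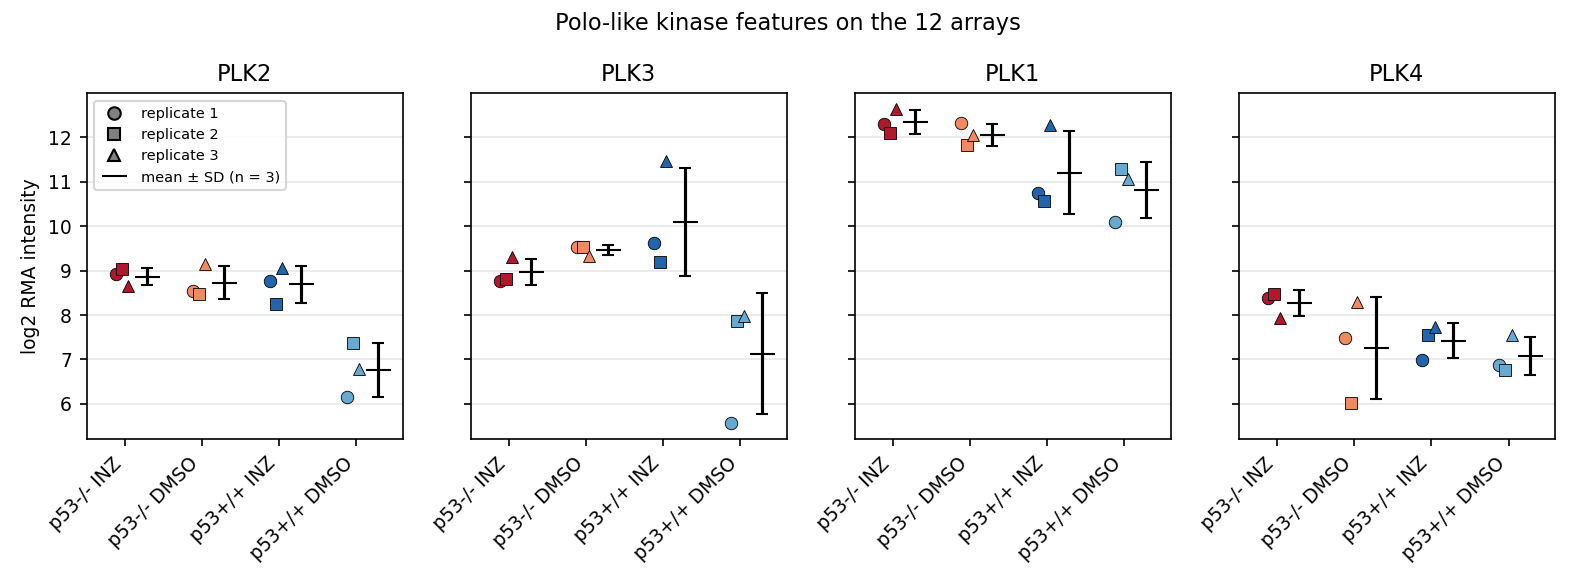
Log2 RMA intensity of PLK1, PLK2, PLK3 and PLK4 on each of the 12 arrays (points), with the mean and SD of each group (n = 3). The p53+/+ DMSO arrays are the low ones for PLK2 and PLK3, and PLK1 separates the genotypes more than the treatments.

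Among the 4 kinases in p53-/- cells, PLK4 alone had a limma p under 0.05 before adjustment, against 13.6% of features. No overlap with INZ higher in p53+/+ cells was seen for 2 of 4 kinases and for 7.39% of features. No overlap with INZ lower in p53-/- cells was seen for PLK3 and for 12.5% of features, which makes the order of PLK3 in p53-/- cells a common one. For the difference between the INZ effects, 0 of 4 were called, against 0.0178% of features (8 features). PLK2 and PLK3 had a limma p under 0.05 before adjustment, against 4.71% of features.

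The contrast of the stress-induced with the mitotic members can be read from the intervals in p53+/+ cells. With all arrays the lower ends were 1.19 for PLK2 and 1.64 for PLK3, and the upper ends were 1.31 for PLK1 and 1.35 for PLK4, so the interval of PLK3 alone lay above those of both mitotic kinases. Without the 2 arrays that stand apart the lower ends were 0.68 for PLK2 and 0.83 for PLK3, and PLK3 overlapped PLK4, whose upper end was 1.34. The intervals of PLK3 and PLK4 also overlapped with array weights (1.10 against 1.28), and those of PLK3 and PLK1 with only the 6 arrays compared (1.20 against 1.58). These intervals come from the same arrays, and the differences between members were not themselves tested. The 4 intervals overlapped in p53-/- cells, where the order of the estimates was PLK4 at 1.00, PLK1 at 0.28, PLK2 at 0.14 and PLK3 at -0.50.

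**Figure D3:**
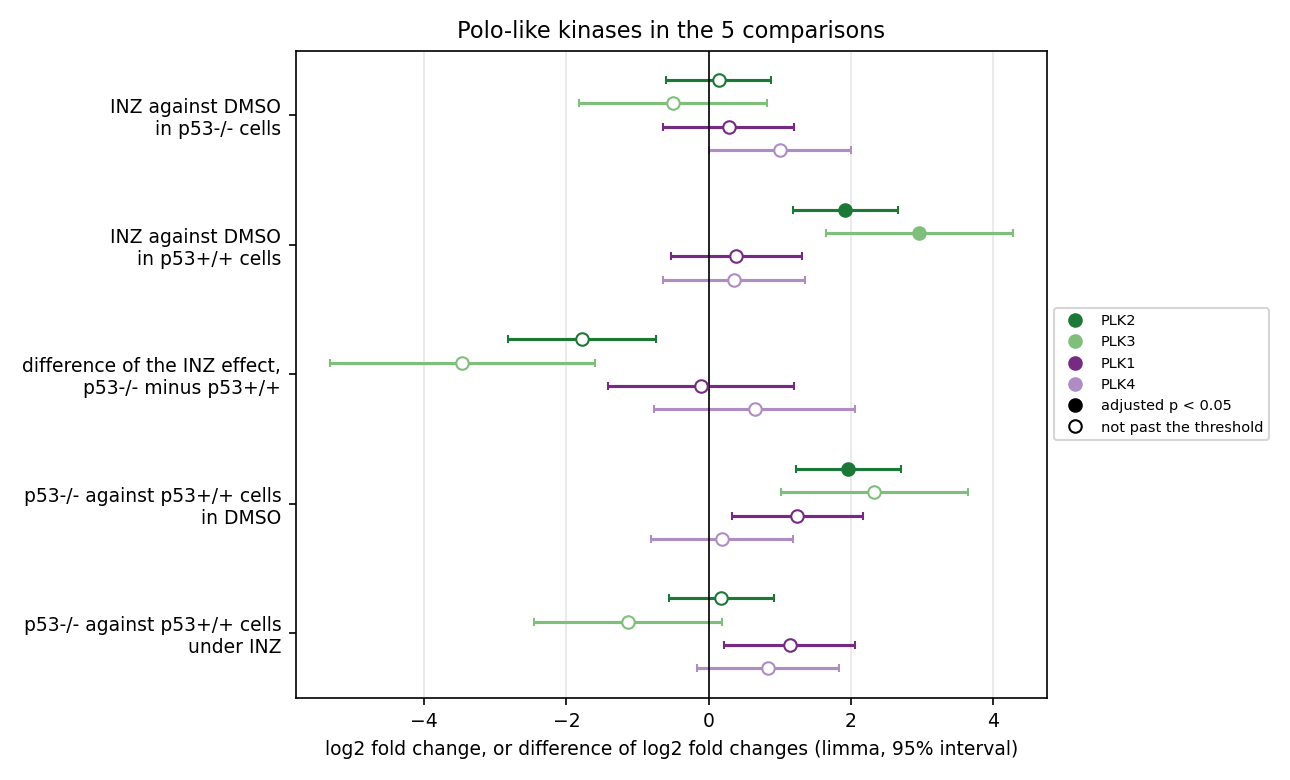
Log2 difference of each kinase with its 95% interval from limma, for INZ against DMSO in each genotype, the difference of these effects, and p53-/- against p53+/+ cells with DMSO and with INZ. PLK2 and PLK3 stand clear of 0 for INZ in p53+/+ cells, and the intervals of PLK1 and PLK4 include 0 there.

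The comparison of genotypes without drug asks whether the level of the kinases differs between the p53-/- and the p53+/+ line. PLK2 was higher in p53-/- cells and passed the test. PLK1 and PLK3 had no overlap between the genotypes but did not pass, and PLK4 overlapped. These comparisons share the p53+/+ DMSO arrays with the INZ comparison above, so a low p53+/+ DMSO array raises both differences.

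PLK2 averaged 8.73 ± 0.37 in p53-/- cells with DMSO and 6.77 ± 0.61 in p53+/+ cells with DMSO (SD, n = 3 each), a difference of 1.96 (1.22 to 2.70) or a fold of 3.89 (2.34 to 6.49), with an adjusted p of 0.0336 in limma. The call was lost on leaving out p53+/+ DMSO replicate 1, p53+/+ INZ replicate 1 or any 1 of the 6 p53-/- arrays, with adjusted p from 0.0563 to 0.215. Without the 2 arrays that stand apart the difference was 1.65 (adjusted p = 0.0685). PLK3 averaged 9.46 ± 0.11 in p53-/- cells and 7.13 ± 1.36 in p53+/+ cells, a difference of 2.33 (1.01 to 3.65) that did not pass (adjusted p = 0.199). It was 1.54 without p53+/+ DMSO replicate 1, and the same without both arrays that stand apart (adjusted p = 0.0515). PLK1 averaged 12.06 ± 0.25 in p53-/- cells and 10.82 ± 0.64 in p53+/+ cells, a difference of 1.24 (0.32 to 2.17, adjusted p = 0.316). PLK4 averaged 7.26 ± 1.15 in p53-/- cells and 7.07 ± 0.43 in p53+/+ cells, a difference of 0.19 (-0.81 to 1.19, adjusted p = 0.895), or 0.098 without the 2 arrays that stand apart. Called higher were 1 of 4 kinases and 0.0799% of features, and non-overlapping with p53-/- higher were 3 of 4 kinases and 8.87% of features.

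The same comparison was made under INZ. PLK2 averaged 8.87 ± 0.20 in p53-/- cells and 8.69 ± 0.41 in p53+/+ cells, with overlapping values and a difference of 0.18 (-0.56 to 0.91, adjusted p = 0.902), or 0.36 without the 2 arrays that stand apart. PLK3 averaged 8.96 ± 0.29 in p53-/- cells and 10.09 ± 1.21 in p53+/+ cells, a difference of -1.13 (-2.45 to 0.18, adjusted p = 0.558), which was -0.44 without p53+/+ INZ replicate 3. PLK1 averaged 12.34 ± 0.27 in p53-/- cells and 11.20 ± 0.94 in p53+/+ cells, a difference of 1.14 (0.21 to 2.06, adjusted p = 0.368). It overlapped only through the high p53+/+ INZ replicate 3, without which the difference was 1.68 (adjusted p = 0.0276). PLK4 averaged 8.26 ± 0.29 in p53-/- cells and 7.42 ± 0.39 in p53+/+ cells, a difference of 0.84 (-0.16 to 1.84, adjusted p = 0.570) with no overlap, as for 7.39% of features. In limma 0 of 4 kinases were called with all arrays, against 0.484% of features, and PLK1 alone had p under 0.05 before adjustment, against 10.3% of features.

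The order of the 4 groups differed between the kinases. PLK2 had 3 groups between 8.69 and 8.87, whose neighbours did not differ beyond their spread, and p53+/+ cells with DMSO below them at 6.77. PLK3 ran from p53+/+ with INZ at 10.09 through p53-/- with DMSO at 9.46 and p53-/- with INZ at 8.96 to p53+/+ with DMSO at 7.13, where the middle 2 and the lowest 2 groups did not overlap and the highest 2 did. PLK1 ran from p53-/- with INZ at 12.34 and p53-/- with DMSO at 12.06 to p53+/+ with INZ at 11.20 and p53+/+ with DMSO at 10.82, with each neighbour overlapping the next. PLK4 ran from p53-/- with INZ at 8.26 and p53+/+ with INZ at 7.42 to p53-/- with DMSO at 7.26 and p53+/+ with DMSO at 7.07, and only the highest group did not overlap the next. A p53+/+ DMSO group below every p53+/+ INZ array and every p53-/- DMSO array was found for PLK2 and PLK3 and for 1016 features in all, 2.26% of the table.

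**Figure D4:**
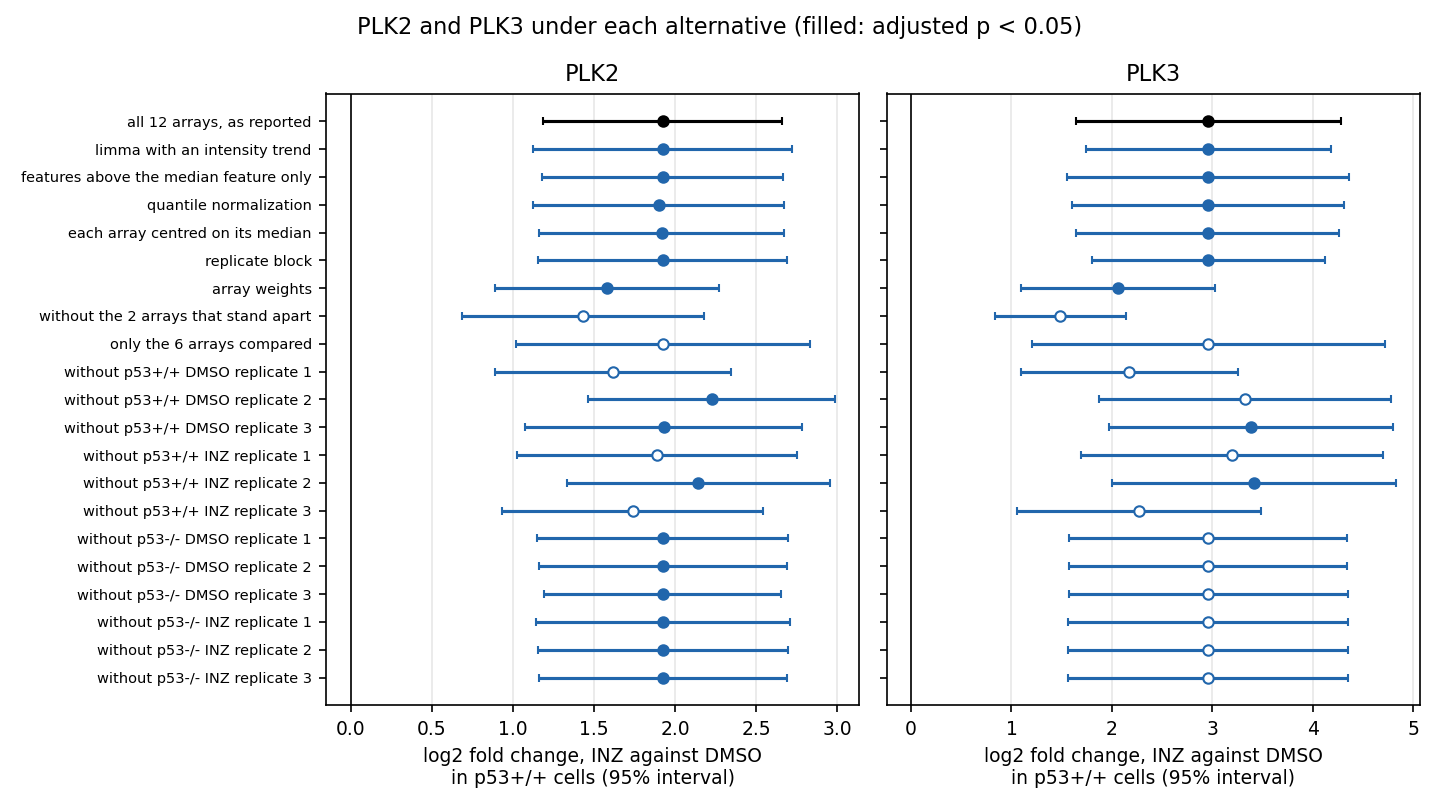
Log2 difference of PLK2 and PLK3 for INZ against DMSO in p53+/+ cells, with its 95% interval from limma, under each way of processing the values and with each array left out, filled where the adjusted p was under 0.05. Both kinases stay above 0 under every setting shown, PLK2 is called in 15 of 20 alternatives and PLK3 in 8 of 20.

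The genes that work with each kinase were counted in lists of known partners. INZ raised 4 of 29 measured mitotic partners of PLK1 in p53-/- cells and 2 of 29 in p53+/+ cells, and lowered 0 of 29 in both. Of all features, 0.482% were called higher and 0.997% lower in p53-/- cells, and 0.529% higher and 0.333% lower in p53+/+ cells. The list medians were 0.67 in p53-/- cells and 0.77 in p53+/+ cells, beside -0.03 over all features in each, and PLK1 itself lay at 0.28 and 0.39. CLSPN (Claspin), which PLK1 marks for destruction so that cells can leave a checkpoint, rose in both, by 1.80 in p53-/- cells (adjusted p = 0.0128) and 1.59 in p53+/+ cells (0.0386). CDK1, the kinase of mitotic entry that primes proteins for PLK1, rose by 2.28 in p53+/+ cells (adjusted p = 0.0161) and had 1.21 in p53-/- cells (0.155). Both calls in p53+/+ cells were lost without the 2 arrays that stand apart, which left 6 members called higher in p53-/- cells and 0 in p53+/+ cells. With those arrays left out, 3.2% of all features were called higher and 2.4% lower in p53-/- cells, against 0.251% higher and 0.118% lower in p53+/+ cells. Leaving out 1 array gave 0 to 5 partners called higher in p53+/+ cells, and 0 or 1 for each of the 6 p53-/- arrays in p53-/- cells. Over all features, leaving out 1 array gave 81 to 1185 called in either direction in p53+/+ cells and 229 to 1313 in p53-/- cells. CDK1 also lost its call without p53+/+ INZ replicate 1 (0.0701), and CLSPN without any 1 of 11 of the 12 arrays in p53+/+ cells and without p53-/- DMSO replicate 2, DMSO replicate 3 or INZ replicate 2 in p53-/- cells. BUB1B, INCENP and NEDD1, named after their values were seen, act in the spindle checkpoint, in the chromosomal passenger complex and in bringing γ-tubulin to the spindle. They rose in p53-/- cells by 1.50, 2.23 and 1.53, with adjusted p of 0.0275, 0.0245 and 0.0398, and each call was lost on leaving out any 1 of the 6 p53-/- arrays. NEDD1 lost it also without p53+/+ DMSO replicate 2 or p53+/+ INZ replicate 1. CEP55, which directs the final cut of cytokinesis and is held back by PLK1, had 1.13 in p53-/- and 1.40 in p53+/+ cells, and ERCC6L (PICH), a helicase of anaphase bridges, had 0.93 and 1.21, without passing. Between genotypes with DMSO all 29 members were higher in p53-/- cells, with a median of 0.70, and 0 were called, with 14 at a limma p under 0.05 before adjustment, against 12% of features. Of all features 48.4% were higher there, and of those above the median feature 56.6%. All 29 differences share the p53+/+ DMSO group, whose replicate 1 stands apart, and they are not given here without that array. The SD in that group was 1.45 for the member BUB1 and 0.07 for AURKB.

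Centriole duplication was covered by 19 of 22 listed genes. INZ raised 1 and lowered 1 of them in p53-/- cells, where 0.482% of all features were called higher and 0.997% lower. With p53 present 0 of the 19 were called in limma, with 4 at p under 0.05 before adjustment, against 14.4% of features. STIL, the scaffold that PLK4 phosphorylates to start a centriole, rose by 1.59 in p53-/- cells (adjusted p = 0.00769; 0.0515 without p53-/- DMSO replicate 2), named after its values were seen. CEP131, a protein of the centriolar satellites that PLK4 phosphorylates, fell by 1.79 in p53-/- cells (adjusted p = 0.00623) and had -0.74 in p53+/+ cells (0.266). CEP152, which recruits PLK4 to the centriole, had 1.22 in p53-/- and 1.40 in p53+/+ cells, SASS6 of the cartwheel 0.08 and 0.67, and the ubiquitin ligase TRIM37 1.49 and 1.68, with no call. The list medians were 0.05 in p53-/- and 0.26 in p53+/+ cells. Without the 2 arrays that stand apart, 3 members were called higher and 1 lower in p53-/- cells, where 3.2% of all features were called higher and 2.4% lower.

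Of 15 partners and substrates of PLK2 and PLK3, 0 were called in limma in either genotype, with 3 in p53-/- cells and 5 in p53+/+ cells at p under 0.05 before adjustment, against 13.6% of features in p53-/- and 14.4% in p53+/+ cells. The medians were 0.12 in p53-/- and 0.32 in p53+/+ cells. TSC1, a brake on mTOR signalling, had -0.40 in p53-/- and -1.08 in p53+/+ cells. VRK1, a nuclear kinase, had 0.12 and 0.90, and FBXW7, a ubiquitin ligase adaptor, had 0.12 and 1.26. Over all features 1.48% were called in p53-/- and 0.862% in p53+/+ cells, so 0 calls of 15 do not set these genes apart.

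PLK2 and PLK3 belong both to the genes p53 can induce and to the immediate early genes, and those lists were set beside them. Of 18 p53 targets other than the kinases, INZ raised 0 and lowered 1 without p53, and raised 9 and lowered 0 with it. Of all features, 0.482% were called higher and 0.997% lower without p53, against 0.529% higher and 0.333% lower with it. The list medians were 0.02 in p53-/- and 1.66 in p53+/+ cells. The 9 called higher became 3 without p53+/+ INZ replicate 1, 5 without p53+/+ INZ replicate 2 and 11 without p53+/+ DMSO replicate 3. Over all features, 388 were called in either direction in p53+/+ cells, and 81 to 1185 on leaving out 1 array. A change in these counts is thus not particular to the p53 targets. The quinone reductase gene TP53I3 rose by 4.04 in p53+/+ cells (adjusted p = 1.39e-05), the phosphatase PPM1D by 2.24 (0.00863), the repair gene DDB2 by 1.74 (0.00792) and CDKN1A, which encodes p21, by 1.85 (0.0113). The same 4 genes in p53-/- cells had -0.43, 0.54, 0.06 and -0.47, with no call. GDF15, a secreted stress factor named after its values were seen, fell by 1.95 in p53-/- cells (adjusted p = 0.00252) and rose by 1.44 in p53+/+ cells (0.0262). Its call in p53+/+ cells was lost on leaving out DMSO replicate 1 or 2 or INZ replicate 1 or 2, and that of CDKN1A on leaving out INZ replicate 1 (0.0512). TP53I3, PPM1D and DDB2 passed with any 1 array left out. When the 2 arrays that stand apart were left out, 0 p53 targets were called higher and 2 lower in p53-/- cells. In p53+/+ cells 6 were called higher and 0 lower. Of all features, 3.2% were then called higher and 2.4% lower in p53-/- cells, against 0.251% and 0.118% in p53+/+ cells. Of 23 immediate early genes, 1 was called higher in p53-/- and 4 in p53+/+ cells, with 0 lower in either and medians of -0.04 and 0.38. Called higher of all features were 0.482% in p53-/- and 0.529% in p53+/+ cells. The 4 genes called in p53+/+ cells became 7 without p53+/+ DMSO replicate 3, and the range over all features given above holds here too. The transcription factor ATF3 rose by 2.93 in p53+/+ cells (adjusted p = 0.000136) and had -0.46 in p53-/- cells. The orphan nuclear receptor NR4A1 rose in both, by 1.60 in p53-/- (0.0198) and 2.29 in p53+/+ cells (0.00495). CCN1, a secreted matrix protein, rose by 1.64 in p53+/+ cells (0.0195), and BTG2, which is also in the p53 list, by 3.23 (0.0113). ATF3, and NR4A1 in p53+/+ cells, passed with any 1 array left out. NR4A1 in p53-/- cells did not pass without any 1 of the 6 p53-/- arrays, BTG2 without p53+/+ INZ replicate 1, and CCN1 on leaving out any 1 of 4 p53+/+ arrays, those of INZ replicates 2 and 3 and of DMSO replicates 1 and 2.

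A list of 12 genes held subunits of DREAM and MMB-FOXM1, the complexes that bind CHR elements, and also E2F1, which is not a subunit of them. With INZ 0 of the 12 were called in limma in either genotype, against 1.48% of features in p53-/- and 0.862% in p53+/+ cells. Before adjustment 3 in p53-/- and 4 in p53+/+ cells had p under 0.05, against 13.6% of features in p53-/- and 14.4% in p53+/+ cells, and the medians were 0.62 and 0.64. FOXM1, the activator of G2 and M genes, had 1.64 in p53-/- (adjusted p = 0.0511) and 1.26 in p53+/+ cells, and MYBL2 had 1.46 and 1.43. RBBP4 had 0.99 and 1.49, and the E2F partner TFDP1 1.04 and 1.24. In p53+/+ cells RBBP4 was 0.60 and TFDP1 0.47 without p53+/+ DMSO replicate 1, and 0.31 and 0.14 without both arrays that stand apart. With those 2 arrays left out, 4 of the 12 were called higher in p53-/- cells, where 3.2% of all features were.

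**Figure D5:**
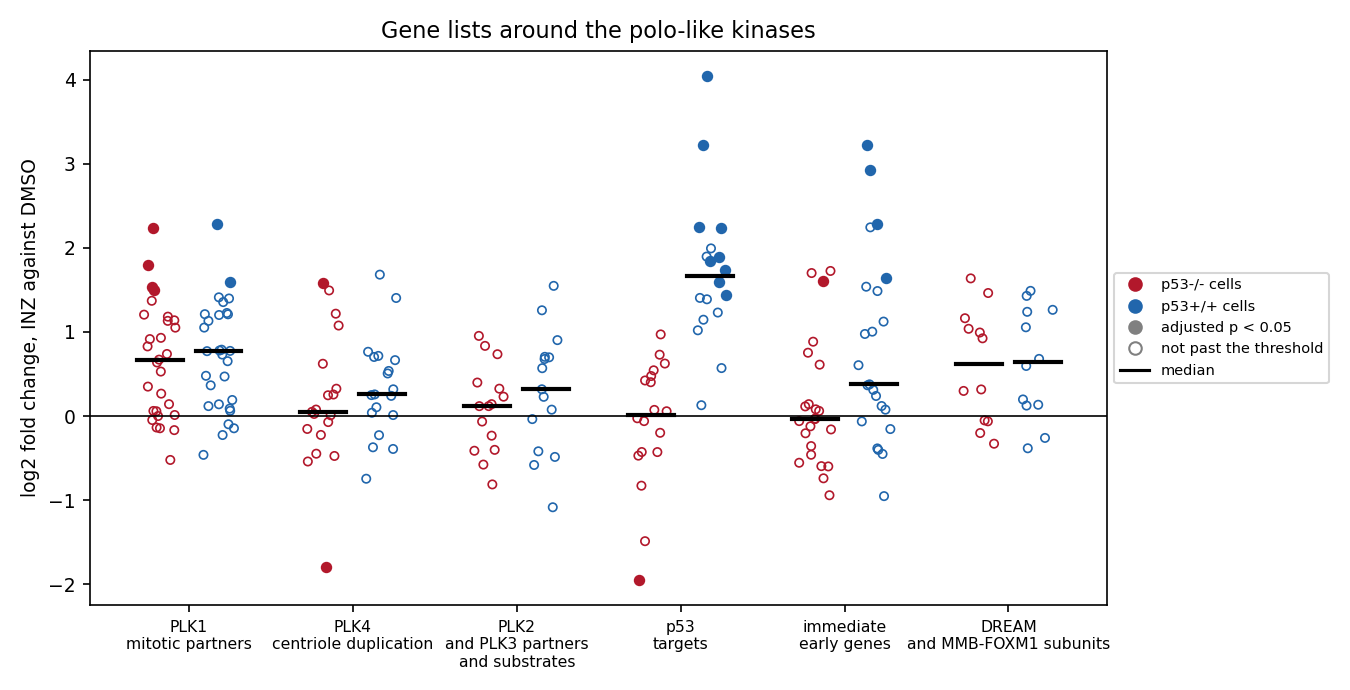
Log2 difference of INZ against DMSO for each measured gene of the 6 lists (points), by genotype, with the median of each list as a bar and filled points where the adjusted p was under 0.05. The p53 targets sit above 0 in p53+/+ cells, with a median of 1.66 against 0.02 in p53-/- cells, and the mitotic partners of PLK1 have medians of 0.67 and 0.77.

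The genes with the profile nearest to each kinase were found among 9306 named genes above the median feature, as the root mean square difference of centred log2 values over the 12 arrays. For PLK3 these were TNFRSF10B (0.51), which encodes the death receptor DR5, NINJ1 (0.56), a membrane protein of cell rupture, and AEN (0.59), a nuclease that p53 can induce. A typical candidate lay at 1.35 from PLK3. For PLK2 they were SBDS (0.36), a ribosome maturation factor, BZW1 (0.41) and TGFA (0.41), a ligand of the EGF receptor, with a median of 0.98. For PLK1 they were TROAP (0.22), a protein of the mitotic spindle, SUMF2 (0.24) and SEH1L (0.25), a nuclear pore subunit, with a median of 0.86. For PLK4 they included WEE1 (0.27), the kinase that holds back CDK1, and the nuclear pore protein NUP50 (0.33), with a median of 0.84. Without the 2 arrays that stand apart WEE1 and NUP50 ranked 1 and 2 for PLK4, and TNFRSF10B, NINJ1 and AEN ranked 46, 105 and 241 for PLK3. For PLK1, TROAP, SUMF2 and SEH1L then ranked 5, 23 and 7, and for PLK2, SBDS, BZW1 and TGFA ranked 10, 19 and 5. The 3 nearest genes of PLK1, PLK2 and PLK3 thus depend on those 2 arrays. Within the family, PLK1 and PLK2 were nearest at 0.67, PLK2 and PLK3 and also PLK1 and PLK4 lay at 0.76, and PLK3 and PLK4 were farthest at 1.38.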

How the data were processed

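Total RNA of HCT116 cells was hybridised to 12 one-colour arrays. Values in the table deposited by the authors are RMA intensity on a linear scale, and their log2 was taken here without a pseudocount. RMA corrects background, normalizes between arrays and summarises probes. The sources used here do not give its settings, its version or the annotation build. The table has no detection calls, and the number of arrays limits the precision. The values were otherwise used as deposited. Features were named through a table of probes and genes (18188) or their accession (678), and 26167 unnamed features were tested as well. For a gene with several features the brightest was used.

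All 12 arrays entered 1 fit with a mean for each group and no covariate (limma 3.58.1, R 4.3.3). P values were adjusted by Benjamini-Hochberg over 45033 features, with 0.05 as the threshold. The steps were tested on simulated data. The members and gene lists were chosen with earlier results of these data known. Named were the 4 kinases, the 4 genes of each list with the smallest p for INZ in p53+/+ cells, and the 3 genes nearest each kinase, except for items that are not reported here. Alternatives were quantile normalization, median centring, features above the median only, an intensity trend, the replicate number as a block, only the arrays compared, and each array left out. Array weights and leaving out the 2 arrays that stand apart were planned with earlier results of these data known. The list counts under each alternative and the ranks of the nearest genes without those arrays were added after seeing the data. P values measure the spread between arrays that the labels call biological replicates. Plots used Python 3.11.15 and matplotlib 3.10.9.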

Additional observations from a re-analysis of the deposited data

Results flagged for a closer look

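PLK3 drew attention because its INZ arrays all lay below the DMSO arrays in p53-/- cells and all above them in p53+/+ cells. The p53-/- difference of -0.50 did not pass (limma, adjusted p = 0.785). Its INZ effect differed by -3.46 between genotypes, p53-/- minus p53+/+, and the test of that difference did not pass over all features (limma, adjusted p = 0.574). TP53I3 and ATF3, each from a list set beside PLK2 and PLK3, drew attention because the difference of their INZ effects passed. It was -4.47 for TP53I3 (adjusted p = 0.000982) and -3.38 for ATF3 (adjusted p = 0.00321) in limma.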

How the results depend on the processing

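The INZ effects on PLK2 and PLK3 in p53+/+ cells kept their sign under every alternative run, and were called in 15 of 20 and 8 of 20 alternatives. Since their INZ and DMSO arrays did not overlap, leaving out or weighting arrays could not turn the sign. Leaving out a p53-/- array does not change these differences at all. Adjusted p ran from 0.0175 to 0.268 for PLK2 and from 0.0213 to 0.366 for PLK3. With only the 6 arrays compared, 1.92 for PLK2 (adjusted p = 0.268) and 2.96 for PLK3 (0.366) did not pass, and without the 2 arrays that stand apart 1.43 and 1.48 did not. Leaving out 1 array gave 1.62 to 2.23 for PLK2 and 2.17 to 3.41 for PLK3. The PLK2 difference between genotypes with DMSO (1.65 to 2.26 on leaving out 1 array) was called in 9 of 20 alternatives. It did not pass without the 2 arrays (1.65) or with 6 arrays (1.96, adjusted p = 0.219).

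For PLK1 in p53+/+ cells the INZ effect was -0.19 with array weights and -0.51 without the 2 arrays (-0.15 to 0.70 on leaving out 1 array), and the difference of the effects was 0.42 and 0.79 (-0.42 to 0.43). Single arrays whose absence turned this second sign were p53+/+ INZ replicate 3 (0.43), p53+/+ DMSO replicate 1 (0.25), p53-/- DMSO replicate 1 (0.02) and p53-/- INZ replicate 2 (0.02). The PLK1 difference between genotypes under INZ passed with array weights (1.44, adjusted p = 0.0199) and without the 2 arrays (1.68, 0.00523), and ran from 0.82 to 1.68 on leaving out 1 array. Signs of small differences also turned for PLK2 between genotypes under INZ (-0.041 to 0.36) and PLK4 between genotypes with DMSO (-0.32 to 0.81). For INZ in p53-/- cells they turned for SASS6 (-0.012 to 0.21), VRK1 (-0.15 to 0.29), FBXW7 (-0.10 to 0.41), BTG2 (-0.30 to 0.15) and DDB2 (-0.12 to 0.25). The cause was not tested for any of these.

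Counts over all features moved more. For INZ in p53-/- cells 666 features became 2996 with weights, 2525 without the 2 arrays and 2705 with 6 arrays (229 to 1313 leaving out 1 array). For INZ in p53+/+ cells 388 became 166 without the 2 arrays and 9 with 6 arrays (81 to 1185). For the difference of effects 8 became 15 with a trend and 30 with weights. Between genotypes, 95 with DMSO became 190 with weights and 6 with 6 arrays (17 to 525), and 218 under INZ became 2469, 4298 without the 2 arrays, and 129 with 6 arrays (59 to 1652).

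Replicate numbers are shared between groups, but samples of 1 number did not deviate together, with correlations from -0.189 to 0.332 over 18 pairs, so they were not taken as pairs. With the number as a block, PLK2 between genotypes with DMSO had 1.96 with an adjusted p of 0.0566, and no other kinase changed its call. A mean over several features of a gene could not be run, since each kinase has 1.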
